A study of Drosophila melanogaster with 6 samples.

Results

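The 9 basement membrane genes of the fruit fly described here encode 4 laminin chains (LanA, wb, LanB1, LanB2), both collagen IV chains (Col4a1, vkg), perlecan (trol), nidogen (Ndg) and the collagen-binding protein SPARC. They were taken from 13401 genes with an array row of their own, and were chosen by the expression values of LanA, which had been seen among the genes most lowered in larvae given palm fruit juice. Each gene had 1 row annotated to it alone, so 9 of 9 were measured, and all 9 passed the filter on dim genes. Whether the other 8 genes followed LanA over the 6 arrays was the question asked of them.

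RNA came from whole larvae of Drosophila melanogaster, strain w1118, kept for 5 days from the egg on a semi-purified diet. The control group had this diet alone, and in the juice group the diet was supplemented with palm fruit juice, a watery extract made from oil palm fruits. There were 3 arrays for each diet, hybridised with RNA pooled from 3 to 4 larvae apiece. No array measured a single animal or tissue, and the labels do not say whether the pools came from separate cultures. Values are log2 expression as deposited, so a difference of 1 is 2-fold. They cannot be compared between genes, since every row has its own probes.

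A basement membrane is the thin sheet of matrix that wraps muscles, gut, fat body, trachea, nerves and imaginal discs. Laminin, a trimer of an alpha, a beta and a gamma chain, binds integrins and dystroglycan on the cell surface. Collagen IV forms a cross-linked network beside it, with perlecan and nidogen bound to both. In the fly, LanA and wb are alternative alpha chains, while LanB1 (beta) and LanB2 (gamma) are shared by every laminin trimer. In larvae, fat body and haemocytes release collagen IV into the blood, from which it reaches the other tissues.

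Of all arrays, control replicate 1 and juice replicate 2 stood furthest apart. In these, 536 and 440 of 10051 tested genes differed 2-fold or more from the average of the remaining 5 arrays, while in the other 4 this held for 54 to 178 genes. Results that rest on this pair are given with and without it. Markers of the labelled whole body were measured: fat body markers had a mean log2 level of 11.11 to 11.43 over the arrays, body wall muscle 8.38 to 9.40, trachea 6.95 to 7.53, haemocytes 4.50 to 5.21, glia 4.51 to 4.68 and imaginal discs 3.95 to 4.53. In whole-body RNA, fewer cells of a type and less RNA per cell cannot be told apart.

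The laminin alpha chain LanA measured 7.65, 7.95 and 7.92 in control replicates 1, 2 and 3, and 7.45, 6.92 and 7.18 in juice replicates 1, 2 and 3. Every juice array lay below every control array, with juice replicate 1 the closest to the controls and juice replicate 2 the furthest. The means were 7.84 ± 0.16 and 7.19 ± 0.26 (SD, n = 3 per group), a difference of -0.66 ± 0.18 (SE), or 1.58-fold lower in juice larvae. This difference chose the genes and is given as a description. LanA had the 9th smallest unadjusted p among genes with a lower mean in juice larvae, and its adjusted p in limma was 0.931.

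The gamma chain LanB2 showed the same order of arrays. It measured 5.94, 6.14 and 6.09 in control replicates 1, 2 and 3, and 5.82, 5.53 and 5.62 in juice replicates 1, 2 and 3. Again all juice arrays lay below all control arrays, and the closest arrays were control replicate 1 and juice replicate 1. The means were 6.06 ± 0.10 and 5.65 ± 0.15 (SD, n = 3 per group). The difference was -0.40 (95% interval -0.74 to -0.07), 1.32-fold lower in juice larvae, with limma's unadjusted p = 0.0256 and adjusted p = 0.931. It did not pass the adjusted test, and its unadjusted p ended above 0.05 without control replicate 2 (0.0887), control replicate 3 (0.0701), juice replicate 2 (0.0584), juice replicate 3 (0.0643), or with both arrays that stood apart removed (0.0572). With equal array medians it was 0.0662, at a difference of -0.36.

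The beta chain LanB1, which joins LanB2 in every fly laminin, did not share this order. It measured 7.54, 7.77 and 7.69 in control replicates 1, 2 and 3, and 7.41, 7.73 and 7.51 in juice replicates 1, 2 and 3. The groups overlapped: juice replicate 2, the lowest array for LanA and LanB2, was the second highest for LanB1. The difference was -0.12, with a 95% interval of -0.47 to 0.23 (limma, adjusted p = 0.946). The lower end of that interval lies beyond the LanB2 difference, so a decrease of that size could not be told from none.

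The other alpha chain, wb (wing blister), was dim, at 2.83 ± 0.13 in control and 2.75 ± 0.13 in juice larvae (SD, n = 3 per group), against a limit of 2.63 below which genes were not tested. It ranged from 2.71 to 2.97 in control and from 2.60 to 2.83 in juice arrays, and the groups overlapped. The difference was -0.08 (95% interval -0.42 to 0.26, limma, adjusted p = 0.964).

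**Figure D1:**
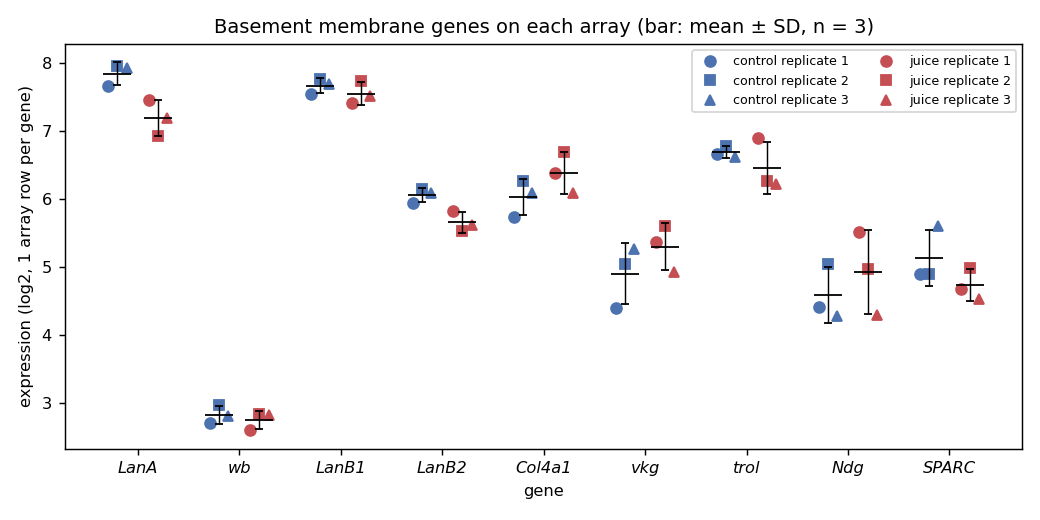
Log2 expression of each basement membrane gene on each of the 6 arrays, control in blue and juice in red, with marker shapes for the replicates and bars for the mean ± SD of 3 arrays. For LanA and LanB2 all red points lie below all blue points; for the other 7 genes the groups overlap.

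Both collagen IV chains had higher means in juice larvae, on the opposite side from LanA and LanB2. Col4a1 measured 5.73, 6.26 and 6.09 in control replicates 1, 2 and 3, and 6.38, 6.69 and 6.08 in juice replicates 1, 2 and 3. Its partner chain vkg (viking) measured 4.40, 5.05 and 5.26 in control replicates 1, 2 and 3, and 5.36, 5.61 and 4.93 in juice replicates 1, 2 and 3. For both chains control replicate 1 was the lowest array and juice replicate 2 the highest, and juice replicate 3 lay within the control range. The differences were 0.36 (95% interval -0.14 to 0.86) for Col4a1 and 0.40 (95% interval -0.24 to 1.04) for vkg, with an adjusted p of 0.931 in limma for each. They rested on the pair of arrays that stood apart: without control replicate 1 and juice replicate 2, the difference was 0.06 for Col4a1 and -0.01 for vkg.

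SPARC, which binds collagen IV and is needed for its deposition in the fly, had a lower mean in juice larvae. It measured 4.90, 4.90 and 5.61 in control replicates 1, 2 and 3, and 4.67, 4.99 and 4.54 in juice replicates 1, 2 and 3. The groups overlapped through juice replicate 2, and control replicate 3 was well above all other arrays. The difference was -0.40 (95% interval -0.96 to 0.15, limma, adjusted p = 0.931). It was -0.17 without control replicate 3. Without control replicate 1 and juice replicate 2 it was -0.65 (limma, unadjusted p = 0.0476, adjusted p = 0.947).

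The perlecan gene trol, coding for a heparan sulphate proteoglycan, measured 6.66, 6.78 and 6.61 in control replicates 1, 2 and 3, and 6.90, 6.26 and 6.22 in juice replicates 1, 2 and 3. Juice replicates 2 and 3 lay below the controls, while juice replicate 1 was the highest array of all. The difference was -0.22 (95% interval -0.71 to 0.26, limma, adjusted p = 0.931). Single juice arrays moved it either way: it was -0.44 without juice replicate 1 (limma, unadjusted p = 0.0199, adjusted p = 0.668), -0.12 without juice replicate 2 and -0.10 without juice replicate 3. Ndg, whose product nidogen links laminin to collagen IV, measured 4.42, 5.05 and 4.29 in the controls and 5.51, 4.97 and 4.29 in juice replicates 1, 2 and 3. Juice replicate 1 was the highest array and the other juice arrays lay within the control range. The difference of 0.34 (95% interval -0.46 to 1.14, limma, adjusted p = 0.933) shrank to 0.05 without juice replicate 1.

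**Figure D2:**
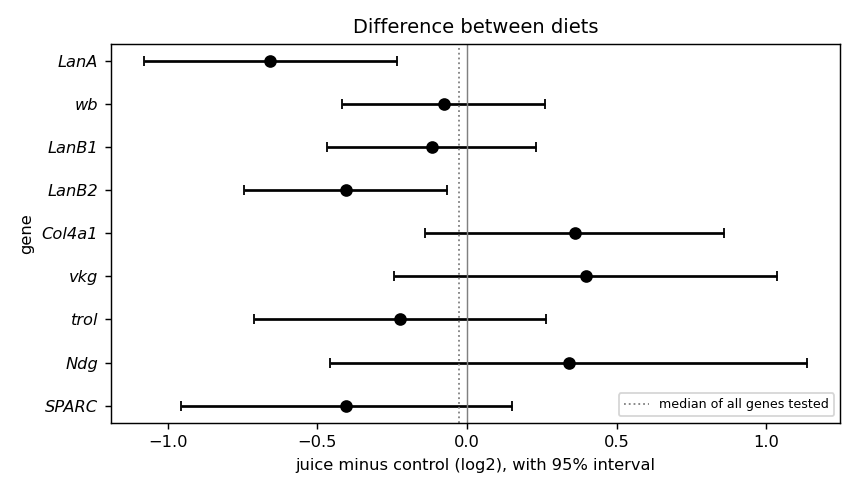
Difference between juice and control means (log2) for each gene, with limma's 95% interval; the dotted line is the median of all genes tested, -0.03. The intervals of LanA, by which the genes were chosen, and LanB2 lie below 0, and those of the other 7 genes include it.

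Counted together, 6 of 9 genes had a lower mean in juice larvae, as did 55.1% of all genes tested. At limma's adjusted p under 0.05, 0 of 9 were called and 0% of all genes. At unadjusted p under 0.05, LanA and LanB2 were lower and 0 members were higher, with 2.00% of all genes called lower and 2.68% higher. Of all genes so called 57.2% were higher; equal array medians made this 75.1%, and quantile normalization 68.3%. Every juice array lay below every control array in the same 2 genes, against 5.08% of all genes, and above in 0 members, against 4.96%. Leaving out LanA, by which the genes were chosen, 1 of 8 was called at unadjusted p under 0.05, where 4.68% of all genes were called in either direction. The median difference of the 8 was -0.10, beside -0.03 over all genes.

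Over the 6 arrays, LanB2 followed LanA closely. Its Pearson r with LanA was 0.995 (exact permutation p = 0.0014, two-sided, the smallest that 720 orders can give), and Spearman's rho was 1.0 (exact permutation p = 0.0028). Of the 10050 other genes tested, LanB2 had the highest r with LanA, and in turn 0 genes had a higher r with LanB2 than LanA had. Adjusted over all 10050 genes the p of r was 0.465, which was also the smallest adjusted p of any gene. LanA was chosen for a difference between the diets, so any gene with a like difference would correlate with it. Deviations from the diet group means, which hold no such difference, gave r = 0.977 (exact permutation within groups, p = 0.0278, the smallest that 36 orders can give). On those deviations LanB2 stood 14th of 10050 genes.

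With each array left out in turn, r of LanB2 with LanA ran from 0.994 to 0.998. Without the 2 arrays farthest from the LanA median, control replicate 2 and juice replicate 2, r was 0.996 (exact permutation p = 0.0833). Over those 4 arrays SPARC had r = 0.939 (exact permutation p = 0.0417, the smallest that 24 orders can give), so the p of LanB2 was no longer under 0.05 while that of SPARC was. LanA spread further than LanB2, with a range of 1.03 against 0.62 over the 6 arrays. The within-array difference between them was therefore not constant: relative to its control mean, LanA minus LanB2 was -0.07, 0.02 and 0.05 in the controls and -0.16, -0.39 and -0.22 in the juice arrays. The groups did not overlap in this difference, but LanA had been chosen for being low.

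For the other 7 partners, r with LanA ran from -0.528 to 0.703, and 0 of 7 had an exact permutation p under 0.05. With LanB2, that makes 1 of 8, where 8.38% of all genes were called. The median r of the 8 partners was 0.22, beside -0.06 for all 10050 genes, whose quartiles were -0.42 and 0.37. After LanB2, trol came closest, with r = 0.703 and rho = 0.543 (exact permutation p = 0.128 and 0.297). Its r was 0.735 on deviations from the group means, but 0.449 without the 2 arrays farthest from the LanA median. SPARC had r = 0.490 and rho = 0.20 (exact permutation p = 0.340 and 0.714), and its r on deviations from the group means was -0.090.

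LanB1 had r = 0.235 and rho = 0.371 with LanA (exact permutation p = 0.632 and 0.497). Single arrays moved this value either way: r was 0.818 without juice replicate 2 (exact permutation p = 0.0917) and -0.079 without control replicate 2. Without any other single array r ran from 0.118 to 0.284. On deviations from the group means it was -0.386. The dim wb had r = 0.201 and rho = 0.086 (exact permutation p = 0.707 and 0.919).

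The collagen chains lay on the other side of 0, with r = -0.528 and rho = -0.314 for Col4a1 (exact permutation p = 0.290 and 0.564). For vkg, r was -0.366 and rho -0.371 (exact permutation p = 0.482 and 0.497). Ndg had r = -0.132 and rho = -0.029 (exact permutation p = 0.788 and 1.0). Leaving out the pair that stood apart, r was 0.035 for Col4a1, 0.276 for vkg and 0.040 for Ndg. Without the 2 arrays farthest from the LanA median, r of the partners other than LanB2 ran from -0.254 to 0.939, with SPARC at the upper end and LanB1 at 0.730. Adjusted over all 10050 genes, the p of r was 0.682 to 0.964 for these 7 partners.

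**Figure D3:**
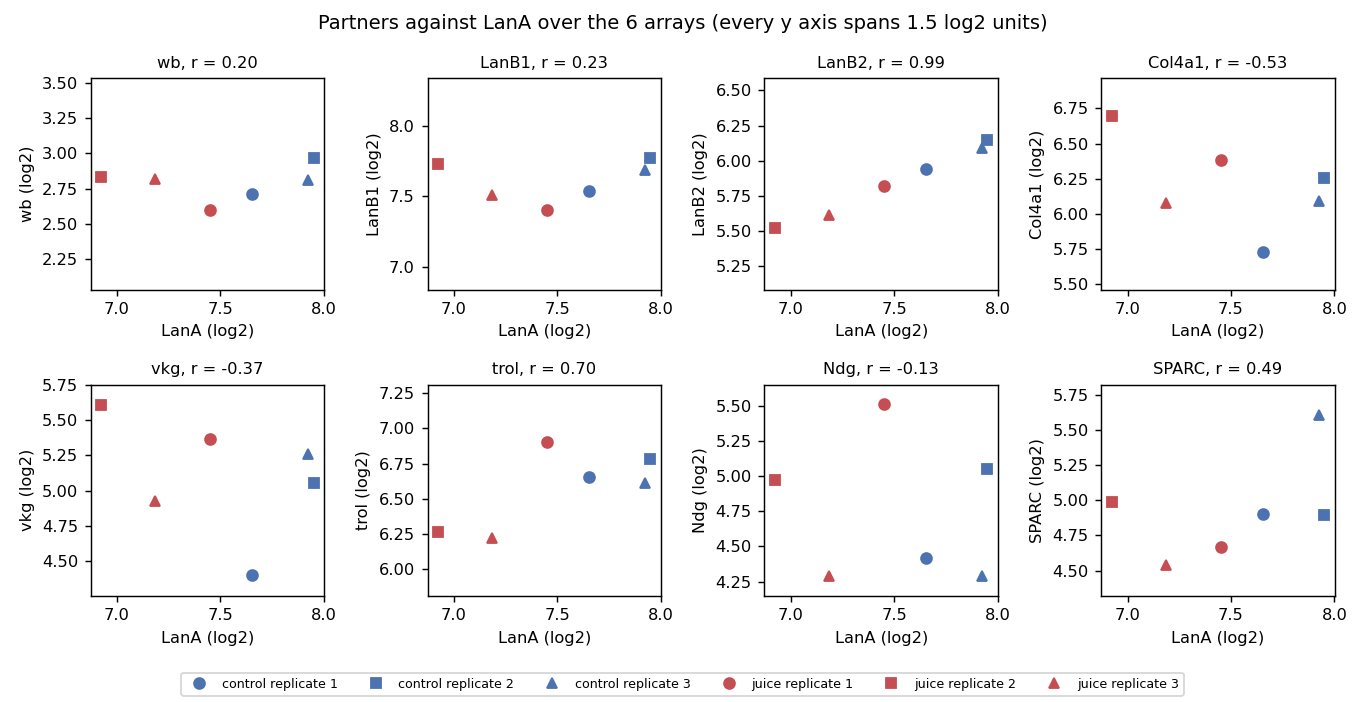
Log2 expression of each of the 8 partners against LanA on the 6 arrays, control in blue and juice in red; every vertical axis spans the same 1.5 log2 units. LanB2 lies on a line with LanA (r = 0.99), while LanB1 (r = 0.23) and the collagen chains (r = -0.53 and -0.37) do not.

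The collagen IV chains correlated with each other more than with LanA. Their genes lie side by side, with 0 protein-coding genes between them in the RefSeq gene table of Release 6, and are read in opposite directions from a shared start region in the fly. Col4a1 and vkg had r = 0.924 and rho = 0.943 (exact permutation p = 0.0153 and 0.0167, and p of r adjusted over all genes = 0.415). Of 10049 other genes, 36 followed vkg more closely than Col4a1 did, and 85 followed Col4a1 more closely than vkg did. On deviations from the group means r was 0.897. Without the 2 arrays farthest from the Col4a1 median, control replicate 1 and juice replicate 2, r was 0.559, so the relation rested largely on those arrays.

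Among all 36 pairs of members, wb and LanB1 came next, with r = 0.863 and rho = 0.829 (exact permutation p = 0.0222 and 0.0583, and p of r adjusted over all genes = 1.0). On deviations from the group means r was 0.845, and without the 2 arrays farthest from the wb median, control replicate 2 and juice replicate 1, it was 0.511. For LanB1 and LanB2, beta and gamma chains of the same trimers, r was 0.282. All pairs share the same 6 arrays, so none of these values is independent of the others.

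**Figure D4:**
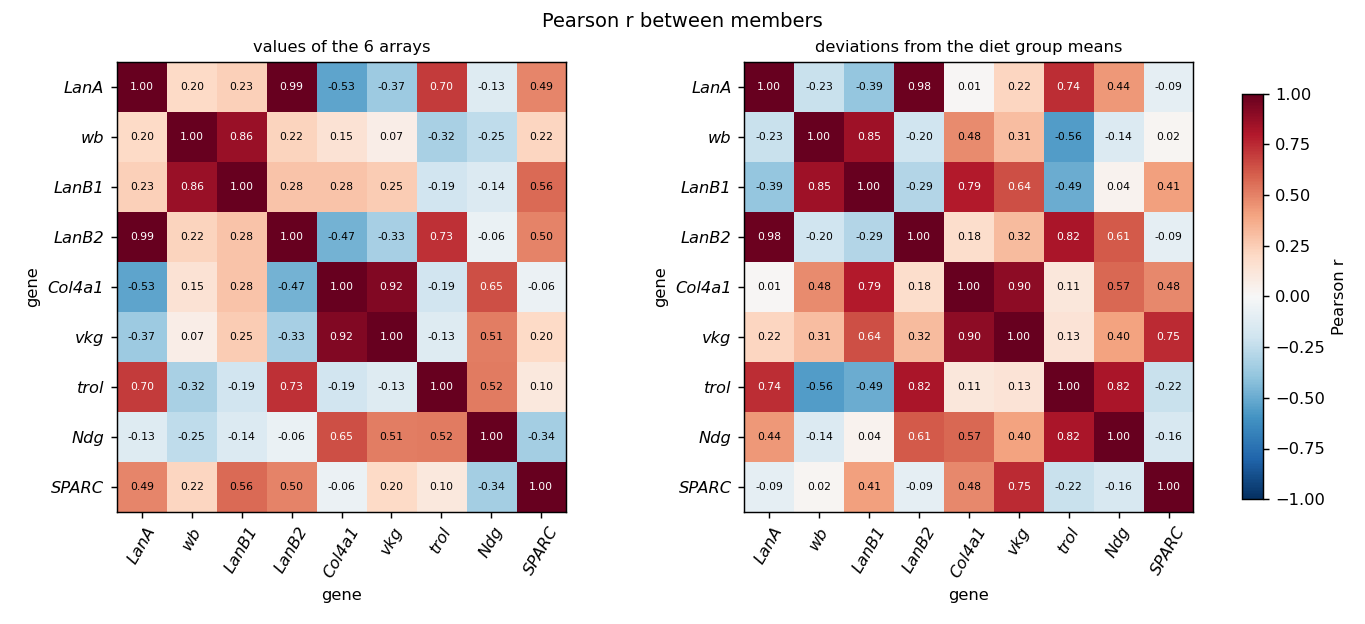
Pearson r between members over the 6 arrays (left) and on deviations from the diet group means (right), on a colour scale from -1 to 1. LanA with LanB2 (0.99 and 0.98), Col4a1 with vkg (0.92 and 0.90) and wb with LanB1 (0.86 and 0.85) stand high in both panels.

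The contrast between collagen IV and the laminin chain LanB2 was also taken within each array, a comparison chosen after its values were seen. LanB2 followed LanA, which had been chosen for being low, so the part of a raised difference that came from LanB2 was largely set by that choice. The diet means differed by -0.40 for LanB2, 0.36 for Col4a1 and 0.40 for vkg. Relative to its control mean, the mean of Col4a1 and vkg minus LanB2 was -0.28, 0.10 and 0.18 in control replicates 1, 2 and 3. It was 0.65, 1.22 and 0.48 in juice replicates 1, 2 and 3. All juice arrays lay above all control arrays, and the means differed by 0.78 (exact permutation p = 0.1, two-sided, the smallest that 3 against 3 arrays can give). Without control replicate 1 and juice replicate 2 the difference was 0.42. LanB1 minus LanB2 differed by 0.29 with overlapping groups (exact permutation p = 0.4): juice replicate 1 was at -0.02, and juice replicates 2 and 3 at 0.60 and 0.29. Col4a1 minus vkg differed by -0.04 (exact permutation p = 0.9).

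The 5 genes whose pattern was most like LanA, by Pearson r over the 6 arrays, were LanB2, CG42686 (r = 0.989), CG43066 (0.986), CG12672 (0.981) and aux (0.979), the last coding for auxilin, which strips the coat from clathrin vesicles. The group of CG genes was dim. CG42686 measured 3.29, 3.43 and 3.35 in the controls and 3.16, 2.98 and 3.07 in juice replicates 1, 2 and 3, while aux measured 6.09, 6.20 and 6.14 and then 5.99, 5.73 and 5.92. All 5 placed the arrays in the same order as LanA, which follows largely from choosing the closest of 10050 genes. On deviations from the group means r was 0.920 to 0.954 for the 4 genes other than LanB2, against 0.977 for LanB2.

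Receptors for the basement membrane were split. Of 10 integrins and other matrix receptors tested, 6 had a lower mean in juice larvae and 4 a higher one, with a median difference of -0.10. This was close to the share over all genes, of which 55.1% had a lower mean, with a median difference of -0.03. At unadjusted p under 0.05, 1 was lower and 2 were higher, where 2.00% and 2.68% of all genes were, and 0 passed limma's adjusted test. ItgaPS4, an integrin alpha chain, measured 3.40 ± 0.44 in control and 2.70 ± 0.18 in juice larvae (SD, n = 3 per group). It was dim in juice replicates 1, 2 and 3, at 2.60, 2.91 and 2.59, against the limit of 2.63 set on the mean of a gene. The alpha chain if (inflated) measured 4.89 ± 0.06 and 5.28 ± 0.18, and the beta chain Itgbn 3.78 ± 0.13 and 4.18 ± 0.19. In these 3 genes the groups did not overlap, and limma's adjusted p was 0.931 for each. For ItgaPS4 the groups were barely apart, with control replicate 2 at 2.919 and juice replicate 2 at 2.911. Of all 10 receptors, 2 lay lower and 2 higher on every juice array, beside 5.08% and 4.96% of all genes. The unadjusted p of each of the 3 named genes was above 0.05 in 4 of 6 fits that left out 1 array.

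In the integrin adhesion complex, which ties integrins to actin inside the cell, 8 of 10 genes tested had a higher mean, with a median difference of 0.18. Over all genes 55.1% had a lower mean, and the median difference was -0.03. Of the 10, 3 lay higher on every juice array and 0 lower, beside 4.96% and 5.08% of all genes. The mean of the list was 5.38 to 5.41 in control and 5.47 to 5.57 in juice arrays. At unadjusted p under 0.05, where 2.68% of all genes were higher, the list held 1 gene, Zasp52, a muscle attachment and Z-disc protein. It measured 6.81 ± 0.12 in control and 7.30 ± 0.38 in juice larvae (limma, adjusted p = 0.931). The adaptor genes by (tensin, difference 0.24 ± 0.14, SE) and Vinc (vinculin, 0.23 ± 0.16) were not under that threshold. Without juice replicate 1 the Zasp52 difference was 0.31, against 0.50 with all arrays. Body wall muscle markers stand beside this list. Of 8 tested, 5 had a higher mean in juice larvae and 3 a lower one. At unadjusted p under 0.05, 5 were higher and 0 were lower, where 2.68% and 2.00% of all genes were. Relative to its mean over all arrays, their mean was -0.17, 0.06 and -0.36 in control replicates 1, 2 and 3, and 0.66, 0.04 and -0.22 in juice replicates 1, 2 and 3. Control replicate 2 thus lay above juice replicates 2 and 3. Mlc1 and Mlc2 (myosin light chains) differed by 0.60 ± 0.18 and 0.65 ± 0.19, and up (troponin T) by 0.62 ± 0.22. The part of muscle in the adhesion list was not tested.

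For collagen folding and secretion, 7 of 12 listed genes were tested, and 6 had a higher mean (median difference 0.11), with 0 at unadjusted p under 0.05 in limma. Over all genes 55.1% had a lower mean, 4.68% were under that p in either direction, and the median difference was -0.03. PH4alphaMP, a prolyl hydroxylase, measured 5.17 ± 0.13 in control and 5.53 ± 0.18 in juice larvae. Plod, the lysyl hydroxylase of collagen IV, differed by 0.32 ± 0.19 (SE). Tango1, needed to export collagen IV from the endoplasmic reticulum, was the gene with a lower mean, at -0.35 ± 0.19, or -0.15 without juice replicate 2. Other basement membrane and matrix proteins were split, 5 lower and 3 higher of 8 tested, with 0 at unadjusted p under 0.05. The smallest p values were those of Glt (glutactin, -0.32 ± 0.14), NetB (a netrin, -0.30 ± 0.18) and CG42709 (-0.33 ± 0.23). Matrix proteases and inhibitors were 3 lower and 3 higher of 6, again with 0 at unadjusted p under 0.05. AdamTS-A, a secreted metalloprotease, differed by -0.42 ± 0.19, the matrix metalloprotease gene Mmp2 by -0.26 ± 0.14 and its inhibitor Timp by 0.41 ± 0.28. Without control replicate 3 the difference was -0.24 for AdamTS-A and 0.13 for Timp.

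Markers of the tissues that make collagen IV stand beside its values. Over all genes 55.1% had a lower mean in juice larvae, and 4.68% were at limma's unadjusted p under 0.05 in either direction. Of 9 haemocyte markers tested, 5 were lower and 4 higher in juice larvae, with 0 at unadjusted p under 0.05. Their mean log2 level was 4.50 to 5.21 in control and 4.79 to 5.16 in juice arrays, highest in control replicate 2 and juice replicate 2 and lowest in control replicate 3. PPO1 and PPO2, prophenoloxidases of crystal cells, differed by 1.34 ± 0.60 and 0.75 ± 0.63, and the plasmatocyte receptor gene NimC1 by -0.31 ± 0.15. Both PPO genes were highest on juice replicate 2, at 6.53 and 6.76. The mean of the haemocyte markers includes PPO1 and PPO2 and was not taken without them. Of 8 fat body markers listed, 4 were tested, 3 of them lower, with 0 at unadjusted p under 0.05. Their mean was 11.31 to 11.43 in control and 11.11 to 11.30 in juice arrays, and Fbp2, Fbp1 and Lsp2 differed by -0.28 ± 0.14, -0.21 ± 0.13 and -0.15 ± 0.13. Their part in the collagen values was not tested.

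Markers of other tissues that carry laminin were looked at in the same way. Of all genes tested, 55.1% had a lower mean in juice larvae. Imaginal disc markers were lower in 6 of 7, with 0 at unadjusted p under 0.05 and a mean of 4.28 to 4.39 in control and 3.95 to 4.53 in juice arrays. They were lowest in juice replicate 2, as LanA was, and highest in juice replicate 3. Among them ap differed by -0.32 ± 0.23, rn by -0.27 ± 0.20 and vg by 0.17 ± 0.21. Without juice replicate 2 the difference was -0.08 for ap and -0.13 for rn. Glial markers were lower in 3 of 5, with 0 at unadjusted p under 0.05 and a mean of 4.61 to 4.68 in control and 4.51 to 4.68 in juice arrays. Here repo differed by -0.25 ± 0.16, Gli by 0.08 ± 0.17 and wrapper by -0.05 ± 0.17. Tracheal markers were higher in 4 of 5, with 1 higher and 0 lower at unadjusted p under 0.05 (2.68% and 2.00% of all genes). Their mean was 6.95 to 7.30 in control and 7.32 to 7.53 in juice arrays. The groups were barely apart, with the closest arrays at 7.305 and 7.316. Of single genes, 4.96% lay higher on every juice array. The tracheal gene called at unadjusted p under 0.05 was Gasp, which codes for a chitin-binding protein of the tracheal lining and cuticle. It measured 8.86 ± 0.73 in control and 9.94 ± 0.16 in juice larvae. Its difference of 1.08 was 0.66 without control replicate 3. The mean of the tracheal markers includes Gasp and was not taken without it. Of the rest, verm differed by 0.44 ± 0.22 and pio by -0.22 ± 0.14. Their part in the laminin values was not tested.

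**Figure D5:**
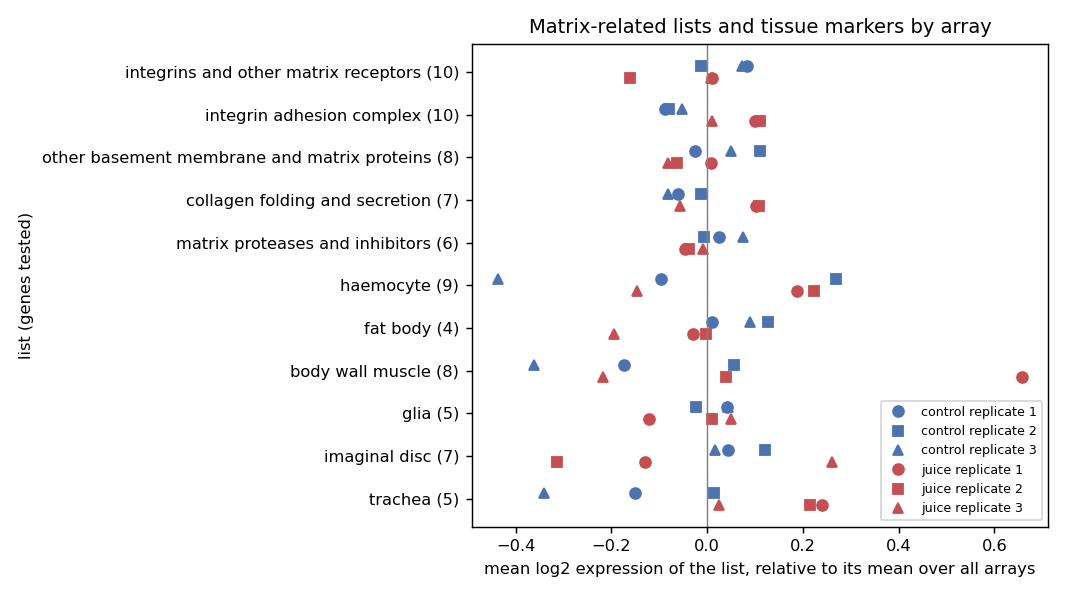
Mean log2 expression of each gene list and each set of tissue markers on each array, relative to its own mean over all arrays; control in blue, juice in red, with the number of genes tested in brackets. The integrin adhesion complex lies higher in all 3 juice arrays than in any control array, as do the tracheal markers. The fat body markers and the matrix proteases and inhibitors lie lower in all 3. The tracheal, fat body and protease sets are barely apart. Their closest control and juice means are 7.305 and 7.316, 11.309 and 11.297, and 4.968 and 4.965. The other 7 sets overlap between the diets. Of single genes, 5.08% lay lower and 4.96% higher in every juice array.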

How the data were processed

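The deposited values are log2 expression per array row. Per the submitters' processing notes, Affymetrix Expression Console 1.4.0.38 and RMA were used, and per the labels' protocols the arrays were hybridised with biotinylated cDNA from total RNA. RMA brings the arrays' distributions together, so a common shift of nearly all transcripts would mostly be lost. Precision is limited by the number of arrays. Rows with 1 gene in the platform annotation were kept (13440 of 16322), named through RefSeq's gene table, and the row with the highest mean represented each gene. The dimmest 25% of genes were left out. Diets were compared over 10051 genes with lmFit and eBayes of limma 3.58.1 (R 4.3.3), with Benjamini-Hochberg adjustment and no covariate. Correlations over arrays used exact permutation tests in Python 3.11.15. Both procedures were checked on simulated data. P-values measure the spread between these pools, which may be technical.

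Same-numbered control and juice arrays did not deviate together (r = -0.11, -0.07 and -0.08 across genes), so the number was not used as a block. Named are all members, the 5 genes most like LanA and, per list, up to 3 genes with the smallest unadjusted p. Of the 101 genes listed, 79 were tested, the rest having no row of their own or being dim. The members and lists were chosen with earlier results of these data known. The alternatives were each array left out, control replicate 1 and juice replicate 2 left out, the replicate block, other filters, normalizations, row choices and variance models. The within-array differences and their alternatives were added after seeing the data.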

Additional observations from a re-analysis of the deposited data

How the results depend on the processing

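With 3 pools per diet and a median standard error of 0.18 on the log2 scale, differences of the size seen in most members could not be separated from the spread. LanA and LanB2 kept their lower means under every alternative run. The count of genes past limma's adjusted p was 0 under all alternatives except those leaving out arrays, where it ran from 0 to 4 (4 without juice replicate 3, with 0 members among them). The count of members at unadjusted p under 0.05 was 2, and it was 1 with the replicate block and with equal array medians, which ended the call of LanB2. It ran from 1 to 3 with arrays left out. Without control replicate 1 and juice replicate 2 the 2 members called were LanA and SPARC, and LanB2 was not. Genes past unadjusted p under 0.05 numbered 470 in all, 181 without control replicate 3 and 750 without juice replicate 1. With arrays left out singly, with control replicate 1 and juice replicate 2 removed, with other normalizations or row choices, and on deviations from the group means, the 1 partner with a permutation p under 0.05 against LanA was LanB2; without the 2 arrays farthest from the LanA median it was SPARC. With the replicate block the limma p of PPO1, unadjusted, was 0.0015 (adjusted p = 0.774). With arrays left out, directions turned for the differences of vkg (-0.010 to 0.584), Gli (-0.081 to 0.185), wrapper (-0.158 to 0.054), vg (-0.053 to 0.327) and Col4a1 minus vkg (-0.183 to 0.068). They also turned for r with LanA of wb (-0.268 to 0.497), LanB1 (-0.079 to 0.835), Col4a1 (-0.667 to 0.035), vkg (-0.533 to 0.276) and Ndg (-0.381 to 0.119). On deviations from the group means r turned for wb (-0.226), LanB1 (-0.386), Col4a1 (0.015), vkg (0.218), Ndg (0.437) and SPARC (-0.090). The cause was not tested. With the replicate block r of LanB2 with LanA was 1.0, with too few orders for a test.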
